A study of Homo sapiens with 6 samples.

Results

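The genes described here belong to the pathway that senses DNA in the cytosol and to the enzymes that limit its substrate. They were taken by symbol: MB21D1 (listed under its current name CGAS), TMEM173 (now STING1), IFI16, TREX1 and SAMHD1. Of these 5 genes, 4 had a value among the 17356 gene rows of every library, and SAMHD1 was not analysed here. C4-2B-ENZR is a human prostate cancer line that resists enzalutamide, and its RNA-seq libraries form 2 groups: 3 libraries from cells given an siRNA against KIF15 (siKIF15) and 3 from cells given a negative control siRNA (NC). All cells were kept in the same medium with serum, and the labels state neither siRNA sequence nor time after transfection, nor whether the libraries of a group are separate cultures. P-values therefore refer to the spread among these libraries, which may be technical. The study's title ties KIF15, a mitotic kinesin, to resistance to the androgen receptor antagonist enzalutamide.

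In human cells, cyclic GMP-AMP synthase (the CGAS product) binds double-stranded DNA in the cytosol and makes the second messenger cyclic GMP-AMP. STING (the TMEM173 product), a protein of the endoplasmic reticulum, binds that messenger and recruits the kinase TBK1, which activates the transcription factor IRF3 and so the interferon beta gene. IFI16, a DNA-binding protein of the PYHIN family that is induced by interferon, has been described as a further DNA sensor that acts with STING. TREX1 is the main exonuclease that removes DNA from the cytosol, and its loss in humans causes Aicardi-Goutieres syndrome, an inflammatory disease with raised interferon. SAMHD1 hydrolyses deoxynucleotides, and its loss causes the same syndrome. Reduced expression of CGAS or STING is known from several tumour cell lines.

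IFI16, the DNA-binding sensor, roughly doubled in the libraries labelled KIF15 knockdown, and TREX1, the nuclease, was 1.27-fold higher. TMEM173 was low in both groups and did not pass the test, and CGAS lay at or near the floor of the values in all 6 libraries. The promoter windows of IFI16 are shown because it had the larger change of the 2 genes called. RefSeq (GRCh38.p14) gives it 2 start sites on the plus strand, and 2 of the 4 measured genes, IFI16 and TREX1, had an entry. Letters in capitals mark a repeat of GAAA with a spacer of 1 base, GAAANGAAA. This spacing, close to that of the interferon-stimulated response element, was added to the search after the sequences had been seen. The upstream window is chr1:159008741-159008990, the 250 bases before its start. The downstream window is chr1:159009657-159009891, from 250 to 16 bases before its start and ending where an annotated untranslated region begins.
IFI16 upstream start: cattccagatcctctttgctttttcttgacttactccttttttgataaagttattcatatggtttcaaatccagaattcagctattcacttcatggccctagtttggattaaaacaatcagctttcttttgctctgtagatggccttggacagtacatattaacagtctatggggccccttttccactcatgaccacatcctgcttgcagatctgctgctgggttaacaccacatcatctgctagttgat
IFI16 downstream start: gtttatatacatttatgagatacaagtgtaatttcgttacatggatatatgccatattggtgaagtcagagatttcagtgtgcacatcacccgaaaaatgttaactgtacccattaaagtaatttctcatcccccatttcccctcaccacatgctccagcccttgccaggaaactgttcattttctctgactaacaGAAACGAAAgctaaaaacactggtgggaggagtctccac

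The repeat lay at positions -54 to -46 from the downstream start, on the plus strand, and neither strand of the upstream window held it. Over 35116 RefSeq promoters, 2.69% held GAAANGAAA on either strand within the 250 bases before the start. The core of the interferon-stimulated response element with its usual spacer, GAAANNGAAA, and the interferon gamma-activated site TTCNNNGAA matched neither IFI16 window nor that of TREX1. They matched 3.02% and 6.57% of all promoters. A match of letters is a description of the sequence and does not show a binding site. The TREX1 window lies within an annotated untranslated region of the neighbouring gene ATRIP and is not printed.

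The values are the deposited signal per gene. Library sums ranged from 50360191 to 53157388 in siKIF15 and from 49460840 to 50063012 in NC, but they are sums of adjusted values, and the sequencing depth is unknown. A change is the siKIF15 value less the NC value of log2(signal + 1), fitted with limma over the 16548 genes whose mean reached 1 in either group. Benjamini-Hochberg adjustment ran over all of these genes, and a gene is called at an adjusted p under 0.05. By this rule 18% were called, 1599 of them higher (9.66%) and 1379 lower (8.33%), and 34.8% had no overlap between the groups. Of the 4 genes described here 2 were called higher and none lower. With libraries scaled to equal totals, 1205 were higher and 1753 lower. KIF15 itself was not lower by the test (log2 change -0.13 ± 0.14 SE, limma adjusted p = 0.57), so the groups are named by their labels throughout. The luminal marker KLK3 averaged 68868.6 ± 4123.8 in siKIF15 and 64846 ± 2407.4 in NC (SD, n = 3 each). All 10 luminal epithelial markers examined were measured.

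IFI16 lies on chromosome 1 (158999968 to 159055155, plus strand, GENCODE 29, GRCh38). Its signal was 185.5, 213.1 and 259.7 in siKIF15 1, 2 and 3, against 101.5, 71.5 and 137.9 in NC 1, 2 and 3. Every siKIF15 library was above every NC library, and the lowest siKIF15 value was 1.35 times the highest NC value. The NC values themselves spread over 1.93-fold, more than the 1.40-fold spread in siKIF15. Mean signal was 219.4 ± 37.5 in siKIF15 and 103.6 ± 33.3 in NC (SD, n = 3 each). The log2 change was 1.11 ± 0.23 (SE; limma adjusted p = 0.0034), a 2.16-fold rise, with a 95% interval of 0.62 to 1.6. Of the 1599 genes called higher, 437 had a larger change, and the median change of those genes was 0.48. The call held in each fit that left out 1 library, with log2 changes from 0.87 without NC 2 to 1.34 without NC 3. Without the variance trend in limma the change stayed at 1.11 and the adjusted p was 0.081.

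TREX1 lies on chromosome 3 (48465811 to 48467645, plus strand), and one annotated ATRIP transcript runs through the whole of it on the same strand. The sources used here do not say how reads from the shared stretch were assigned. The TREX1 signal was 6614.3, 6865.9 and 5593.9 in siKIF15, against 5391.1, 4489.3 and 5094.9 in NC. The groups did not overlap, but the gap was narrow: the lowest siKIF15 value, in siKIF15 3, was 1.04 times the highest NC value. Mean signal was 6358.1 ± 673.6 in siKIF15 and 4991.8 ± 459.7 in NC (SD, n = 3 each). The log2 change was 0.35 ± 0.09 (SE; limma adjusted p = 0.013), a 1.27-fold rise, with a 95% interval of 0.16 to 0.54. ATRIP, which encodes the partner of the checkpoint kinase ATR, stood at 958.6, 994 and 816.2 in siKIF15 and at 882.5, 1002.8 and 950.4 in NC. Its log2 change was -0.04 (limma adjusted p = 0.84), so the value listed for ATRIP did not show the TREX1 difference. Any part of shared reads in the TREX1 value was not tested. The TREX1 call ended without siKIF15 1 or NC 2 (log2 change 0.32 and 0.27, limma adjusted p = 0.12 for each), and without the variance trend (adjusted p = 0.15).

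TMEM173 lies on chromosome 5 (139475534 to 139482935, minus strand). Its signal was 47.4, 43.9 and 54.6 in siKIF15, against 66.4, 53.9 and 42.4 in NC. The groups overlapped, and both the highest and the lowest of the 6 values were in NC. Mean signal was 48.6 ± 5.5 in siKIF15 and 54.2 ± 12 in NC (SD, n = 3 each). The log2 change was -0.14 ± 0.27 (SE; limma adjusted p = 0.77). Its 95% interval, -0.71 to 0.43, covers both a moderate decrease and a moderate increase, so this does not show equal expression. Without NC 1 the estimate was 0.02.

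CGAS lies on chromosome 6 (73413515 to 73452276, minus strand) and overlaps DDX43, an RNA helicase gene on the other strand. CGAS was listed at 3.7, 0 and 0 in siKIF15 (rounded to 1 decimal), against 0, 2.3 and 0 in NC. One library of each group thus held a value above 1 and the remaining 4 were at the floor, so no fold is given. CGAS passed the filter on low values only through its siKIF15 mean, and its limma adjusted p was 0.92. AURKA, a mitotic kinase gene that dividing cells use, was likewise listed at 0, 4.1 and 0 in siKIF15 and at 0 in all 3 NC libraries, so a listed 0 is not read as absence of the CGAS transcript. DDX43 stood at 126.9, 140.9 and 131 in siKIF15 and at 159, 169.5 and 132.4 in NC (adjusted p = 0.50).

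**Figure D1:**
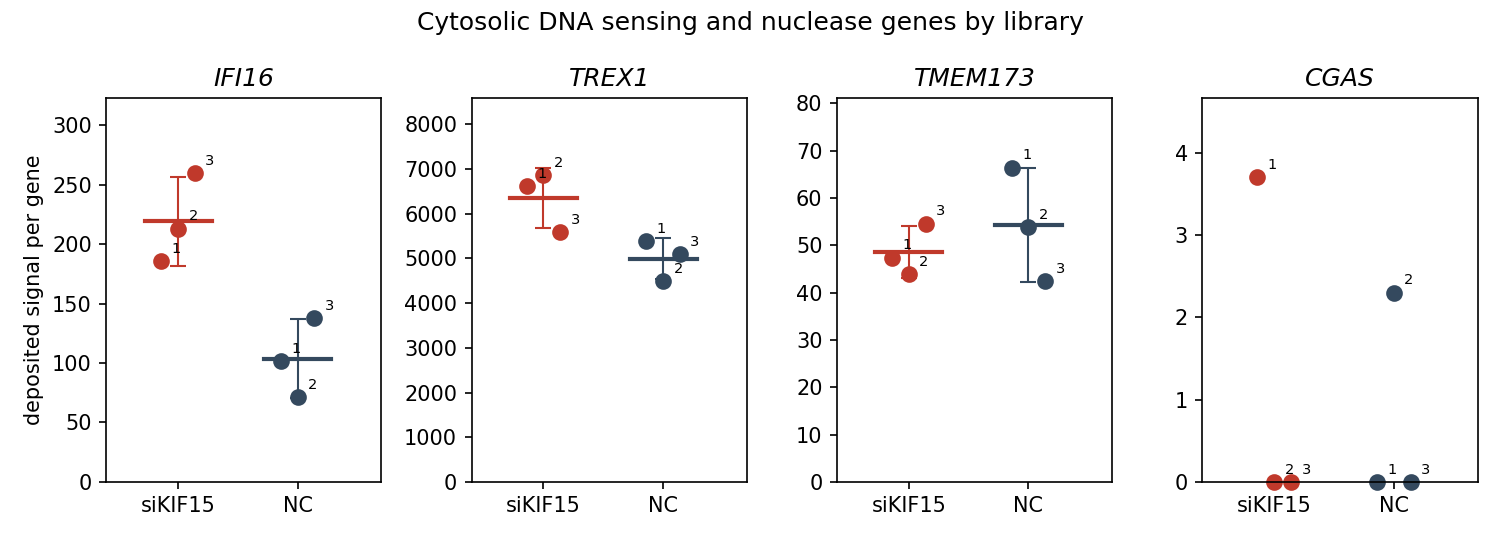
Deposited signal of IFI16, TREX1, TMEM173 and CGAS in each library (vertical axes, linear and starting at 0, one scale per gene), with siKIF15 left of NC. Points are libraries with their replicate number, horizontal bars are means and error bars are SD (n = 3, neither drawn for CGAS); IFI16 and TREX1 show no overlap between groups, TMEM173 overlaps, and CGAS is above 1 in 1 library of each group.

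Per kilobase of transcript, the 4 genes had different levels. Lengths were those of the longest protein-coding GENCODE transcript, from 1471 bases for TREX1 to 3182 for CGAS. TREX1 averaged 4320 signal per kilobase in siKIF15 and 3390 in NC, above 94.2% and 92.9% of the 16122 genes with a length. IFI16 averaged 76.5 and 36.1 signal per kilobase in siKIF15 and NC, above 36.8% and 31.2% of genes. TMEM173 averaged 27.5 in siKIF15 and 30.6 in NC, above 28.9% and 30.2% of genes. The nuclease was thus the highest of the 4 per kilobase in both groups, and the ranges of TREX1, IFI16 and TMEM173 within a group did not overlap except in NC, where the highest TMEM173 library (37.5 per kilobase) passed the lowest 2 IFI16 libraries (24.9 and 35.4). CGAS was at 1.17 per kilobase in siKIF15 1 and 0.736 in NC 2, and at most 0.00437 in the other libraries.

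The libraries differed in how their values moved with the GC content of transcripts. TREX1 is GC-rich and, at 1471 bases, has the shortest transcript of the measured members. Spearman's rho between GC content and a gene's distance from its NC mean was 0.42 for siKIF15 1, 0.40 for siKIF15 2 and -0.08 for siKIF15 3, across 13414 genes averaging 10 or more; genes are not independent replicates. The TREX1 transcript has 63.1% GC, against 56.8% for TMEM173 and 40.7% for IFI16. Among genes of 60 to 65% GC the median change from the NC mean was 0.12, 0.18 and -0.03 on the log2 scale in the 3 siKIF15 libraries, and TREX1 stood at 0.41, 0.46 and 0.17. Among genes of 40 to 45% GC the medians were -0.13, -0.12 and 0.02, and IFI16 stood at 0.88, 1.08 and 1.37. The highest IFI16 change and the lowest TREX1 change thus came from the same library, siKIF15 3. After a correction for GC content and transcript length, IFI16 changed by 1.10 (limma adjusted p = 0.0013), whereas TREX1 stood at 0.11 and lost its call (adjusted p = 0.093). Before it TREX1 stood at 0.35, and the 60 to 65% GC bin had a median of 0.08 over the means of the siKIF15 libraries. The correction took GC content and length together, and the part of each in the TREX1 change was not tested. That correction also moved the median change of all genes tested to -0.08, from 0 before it. Changes after the correction are read beside that median. TMEM173 stood at -0.38 (adjusted p = 0.31).

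**Figure D2:**
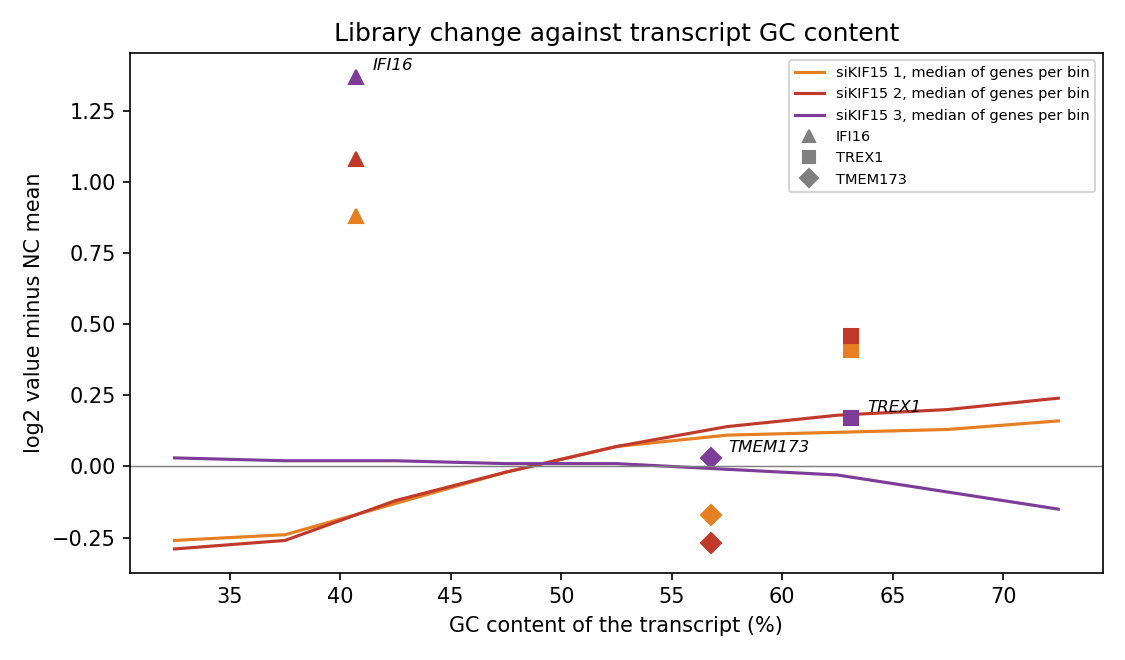
Log2 value minus the NC mean (vertical axis) against transcript GC content in percent (horizontal axis). Lines are the medians of all genes in bins of 5 percentage points for siKIF15 1, 2 and 3, and symbols are IFI16, TREX1 and TMEM173 in those libraries; TREX1 at 63.1% GC sits above its bin by less than IFI16 at 40.7% GC.

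**Figure D3:**
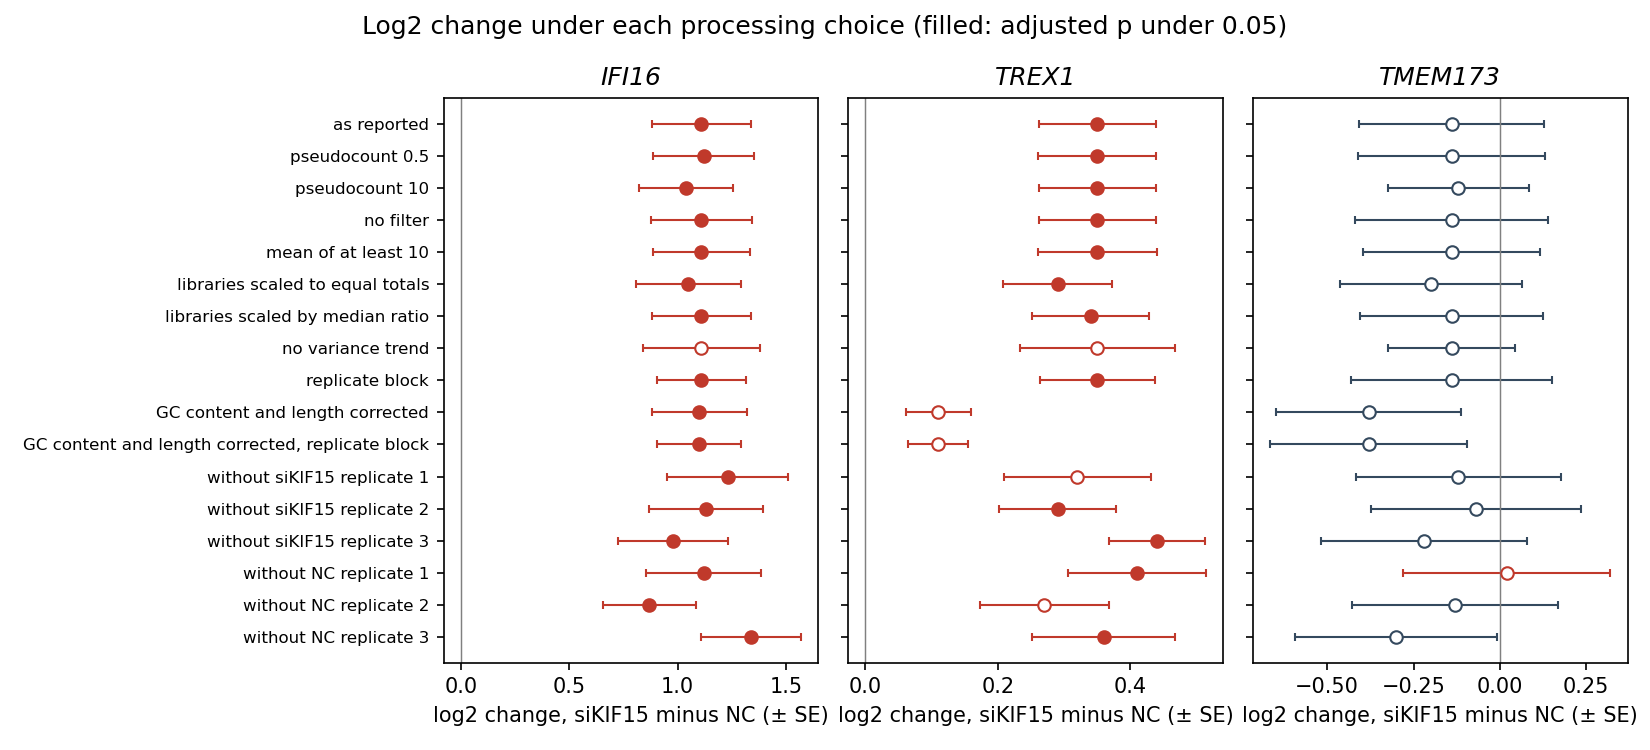
Log2 change, siKIF15 minus NC, with SE (horizontal axes) for IFI16, TREX1 and TMEM173 under each processing choice (rows); filled points have a limma adjusted p under 0.05. IFI16 lies between 0.87 and 1.34 in every row, TREX1 between 0.11 and 0.44, and TMEM173 on both sides of 0.

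IFI16, TREX1, TMEM173 and SAMHD1 are also transcribed in leukocytes, fibroblasts or endothelium, so marker lists of these cells were read in the same libraries. Of 14 leukocyte markers 9 were measured, and 1 was called, CD68, a lysosomal gene that epithelial cells also transcribe (2888.9 to 3555.5 in siKIF15, 1631.8 to 1881.8 in NC; limma adjusted p = 5.9e-06). The other 8 summed to 74.4 to 84.4 in siKIF15 and 67 to 90.9 in NC, and PTPRC, the common leukocyte antigen, was listed at 0 in all 3 siKIF15 libraries and at 0.8, 0.1 and 3.8 in NC. The 10 fibroblast markers summed to 463.3 to 514.7 in siKIF15 and 502 to 529.8 in NC. Among these, FAP and PDGFRA were called higher at means of 6.6 and 5.9 in siKIF15, against 0.8 each in NC. Both passed the filter on low values only through the siKIF15 group, so these calls are not read as support. The 7 endothelial markers measured summed to 442.7 to 504 in siKIF15 and 381.2 to 435.6 in NC, mostly VWF, with none called. CDH5, a defining endothelial cadherin, was at 13.8, 6.3 and 0.1 in siKIF15 and at 3.6, 0.1 and 0 in NC. The part of CD68, FAP and PDGFRA transcripts in the IFI16 and TREX1 results was not tested. In bulk RNA, more cells of a type and more RNA per cell cannot be told apart.

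No other DNA sensor or cofactor was called higher in the uncorrected values. Of 19 listed by name 16 were tested and 2 were called lower, or 12.5% beside 18% over all genes tested. The median log2 change of the 16 was -0.09, beside -0.004 over all genes tested. The genes called were PRKDC, which encodes the catalytic subunit of the DNA-dependent protein kinase, and RAD50, part of a complex that binds DNA ends. PRKDC averaged 12306 ± 2296.6 in siKIF15 and 16517.9 ± 714.1 in NC (SD, n = 3; log2 change -0.44, adjusted p = 0.0085). RAD50 averaged 1098.6 ± 224.9 in siKIF15 and 1483 ± 58.5 in NC (-0.45, adjusted p = 0.016). The RAD50 call ended without siKIF15 1, siKIF15 2, NC 1 or NC 2, and that of PRKDC without siKIF15 1 or NC 2. After the GC and length correction both stayed called at smaller changes, PRKDC at -0.22 and RAD50 at -0.27, and in all 1 gene of the list was called higher and 5 lower. AIM2, the inflammasome DNA sensor and like IFI16 a PYHIN gene, was at 1.7, 6.2 and 2.1 in siKIF15 and listed at 0 in every NC library (adjusted p = 0.097). XRCC5 and XRCC6, the Ku subunits that hold PRKDC at DNA ends, had log2 changes of 0.03 and 0.09 (adjusted p = 0.80 and 0.41).

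Among 27 kinases, factors and regulators that act with STING or on cyclic GMP-AMP, 4 were called higher and 2 lower, or 22.2% beside 18% over all genes tested, with a median log2 change of -0.03. With libraries scaled to equal totals 2 were higher and 5 lower, and after the GC and length correction 4 were higher and 11 lower. The kinase TBK1 stood at 1089.7, 1060.1 and 1269.8 in siKIF15 and at 1318.3, 1457.7 and 1329.3 in NC. Its groups did not overlap, yet its change of -0.27 did not pass (adjusted p = 0.064). IRF3 had a change of 0.25 (adjusted p = 0.058) and the related kinase gene IKBKE one of 0.15 (adjusted p = 0.36). The genes called higher were ULK1, an autophagy kinase that phosphorylates STING (0.51 ± 0.08 SE, adjusted p = 0.00051), LRRC8A, a subunit of the anion channels that carry cyclic GMP-AMP (0.36, adjusted p = 0.0068), TRIM56, a ubiquitin ligase of this pathway (0.34, adjusted p = 0.020), and SURF4, which returns STING to the endoplasmic reticulum (0.22, adjusted p = 0.030). NPC1, the lysosomal cholesterol transporter, was lower at 3300.8 ± 155.9 in siKIF15 and 5214.3 ± 235.6 in NC (SD, n = 3; -0.66, adjusted p = 8.8e-06). ABCC1, an exporter of cyclic GMP-AMP, was lower by a smaller amount (-0.25, adjusted p = 0.040). ENPP1, the ectoenzyme that hydrolyses cyclic GMP-AMP, stood at -0.20 (adjusted p = 0.36). After the GC and length correction SURF4 stood at 0.06 (adjusted p = 0.23), and with libraries scaled to equal totals SURF4 and TRIM56 lost their calls (adjusted p = 0.058 and 0.077). The calls of ULK1 and NPC1 held in all 16 alternatives, and that of SURF4 in 8. Of single libraries, siKIF15 1 and NC 1 ended the calls of LRRC8A, TRIM56, SURF4 and ABCC1 when left out, NC 2 those of TRIM56, SURF4 and ABCC1, NC 3 those of SURF4 and ABCC1, and siKIF15 2 that of ABCC1.

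Besides TREX1, 30 of 31 genes for other nucleases, Aicardi-Goutieres syndrome proteins and SET complex proteins were tested. Of these 3 were called higher and 2 lower, or 16.7% beside 18% over all genes tested, with a median log2 change of 0.03. RNASEH2A, the catalytic subunit of ribonuclease H2, averaged 6396.4 ± 531.2 in siKIF15 and 4845.2 ± 76.9 in NC (SD, n = 3; 0.40, adjusted p = 0.0015). After the GC and length correction RNASEH2A stood at 0.24 and stayed called, and the list held 3 genes called higher and 7 lower. The other subunits did not pass, with RNASEH2B at -0.01 and RNASEH2C at 0.20 (adjusted p = 0.94 and 0.15). HMGB2, a chromatin protein of the SET complex in which TREX1 acts, was higher by 0.31 (adjusted p = 0.011), and its call ended after the GC and length correction (0.12, adjusted p = 0.11) and without NC 1 or NC 3. DNASE2B, an acid nuclease gene, averaged 224.4 ± 16.2 in siKIF15 and 138.9 ± 32.2 in NC (0.71, adjusted p = 0.018). LSM11, a histone pre-mRNA processing factor, and DNASE1L3, a secreted nuclease, were lower (-0.39 and -0.40, adjusted p = 0.022 and 0.030). TREX2, the paralog of TREX1, was at 38.1, 24.1 and 16.6 in siKIF15 and at 20.1, 28.1 and 32.3 in NC (adjusted p = 0.91). ADAR, an RNA-editing enzyme gene of the same syndrome, had a change of 0.09 (adjusted p = 0.61). DNASE2, the lysosomal nuclease, had one of 0.19 with no overlap between the groups (adjusted p = 0.088). Leaving out siKIF15 1, NC 1, NC 2 or NC 3 ended the LSM11 and DNASE1L3 calls. Leaving out siKIF15 2 ended that of LSM11, and leaving out siKIF15 1 or NC 3 that of DNASE2B. The RNASEH2A call held without any 1 library. Without the variance trend no gene of the list was called, RNASEH2A included (limma adjusted p = 0.056).

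**Figure D4:**
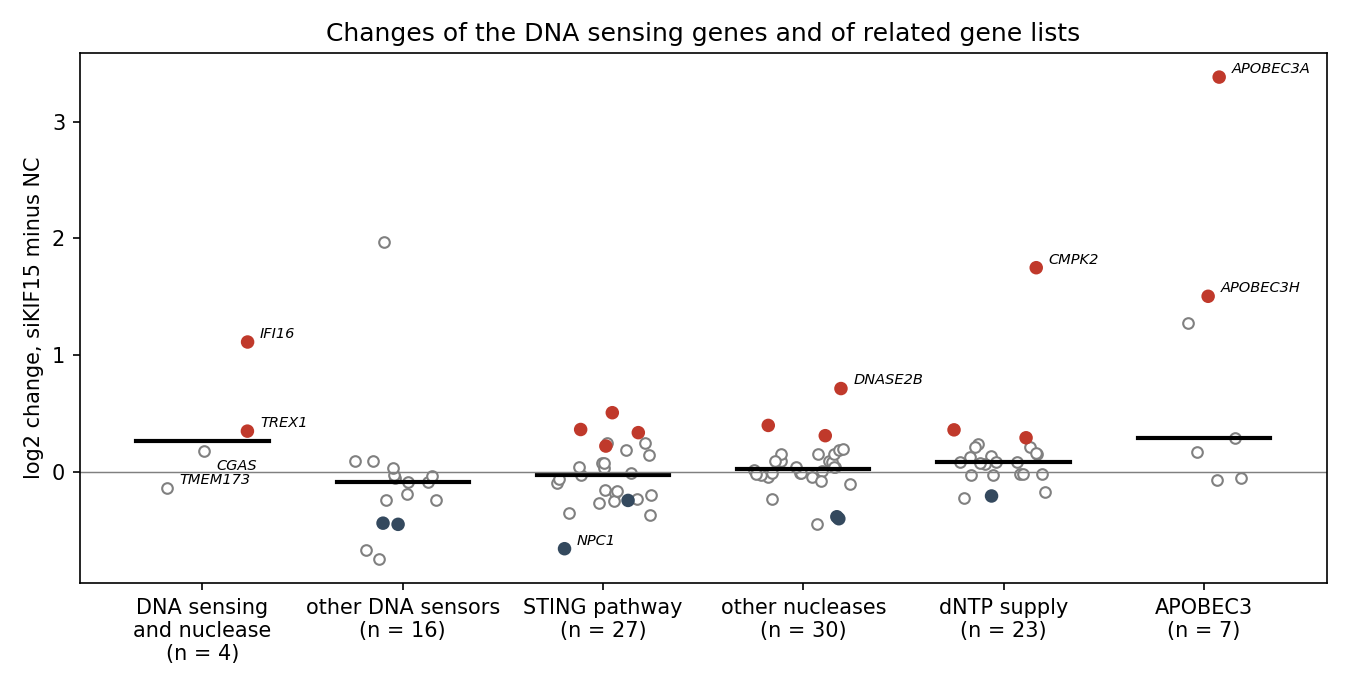
Log2 change, siKIF15 minus NC (vertical axis), of the 4 measured genes and of 5 related gene lists (columns, n = genes tested). Filled points have a limma adjusted p under 0.05, red above and blue below 0, open points do not, and black bars are medians. IFI16 and the genes CMPK2, APOBEC3A and APOBEC3H stand highest among filled points. APOBEC3A passed the filter on low values only through siKIF15, so its point is not read as support.

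SAMHD1 acts on the deoxynucleotide pool, whose supply genes were measured. Of 23 tested, 3 were called higher and 1 lower, or 17.4% beside 18% over all genes tested, with a median log2 change of 0.08. CMPK2, a mitochondrial nucleotide kinase induced by interferon, stood at 1545.4, 1580 and 1570.2 in siKIF15 and at 497.5, 432.9 and 466.2 in NC (1.75 ± 0.10 SE, adjusted p = 2.5e-09). PNP, purine nucleoside phosphorylase, and TYMS, thymidylate synthase, were higher by 0.36 and 0.29 (adjusted p = 0.0031 and 0.019), and TK2, mitochondrial thymidine kinase, was lower by a change of -0.21 (adjusted p = 0.046). The TYMS and TK2 calls ended without siKIF15 1, siKIF15 2, NC 1 or NC 3, and that of TK2 also without NC 2. After the GC and length correction TYMS stood at 0.09 (adjusted p = 0.31) and PNP at 0.14 (still called, adjusted p = 0.024), and 4 genes were called higher and 6 lower. With libraries scaled to equal totals TYMS also lost its call (adjusted p = 0.064). The ribonucleotide reductase genes RRM1, RRM2 and RRM2B had changes of 0.07, 0.08 and -0.23, and none passed (adjusted p = 0.57, 0.44 and 0.13).

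APOBEC3 enzymes deaminate single-stranded DNA. Of the 7 genes 2 were called higher and none lower, or 28.6% beside 18% over all genes tested. The median log2 change of the 7 was 0.29. APOBEC3A was at 9.6, 16.7 and 16.5 in siKIF15 and at 1.8, 0 and 0 in NC (adjusted p = 0.0016). It passed the filter on low values only through siKIF15, the group where it is high, so its call is not read as support. APOBEC3H was at 87.1, 71.1 and 71.2 in siKIF15, against 29.2, 32.7 and 18.8 in NC (1.5 ± 0.29 SE, adjusted p = 0.0020). APOBEC3B averaged 1432 ± 102 in siKIF15 and 1270.5 ± 41 in NC (0.17, adjusted p = 0.20). How reads shared between these similar genes were counted is not given, so values of single APOBEC3 genes are uncertain. The 5 lists held 16, 27, 30, 23 and 7 tested genes. Over all genes tested 9.66% were called higher and 8.33% lower. Over the 5 lists together, 12 genes were called higher, APOBEC3A among them, and 7 lower. The shares per list lay on both sides of 18%, so these counts are not read as a result about the lists. With libraries scaled to equal totals the counts were 9 and 10, and after the GC and length correction 14 and 29, so the balance of higher and lower calls depends on these choices. The median change of all genes tested was -0.06 with equal totals and -0.08 after the correction. Scaling moves all genes of a library by the same factor. The correction moves each gene by its own GC content and length: PRKDC went from -0.44 to -0.22, and TREX1 from 0.35 to 0.11. When 1 library at a time was left out, the counts were 7 and 1 without siKIF15 1, 13 and 4 without siKIF15 2, 23 and 15 without siKIF15 3, 7 and 2 without NC 1, 10 and 1 without NC 2, and 8 and 3 without NC 3.

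The genes nearest to each member in profile were found among 11484 genes whose mean reached 100 in the group where they were higher. Likeness was the root mean square difference, over the 6 libraries, of log2 values taken from the NC mean, and it is a description of these 6 libraries. IFI16 was nearest to GSDMB, a gasdermin gene (0.181), C19orf38 (0.204) and ZBTB32, a zinc finger repressor gene (0.209). GSDMB averaged 192.6 ± 7.4 in siKIF15 and 94.2 ± 24.2 in NC (SD, n = 3 each). TREX1 was nearest to NINJ1, which acts in plasma membrane rupture (0.022), TNFRSF12A, the receptor of the cytokine TWEAK (0.03), and PRSS22, a serine protease gene (0.035). Like TREX1, both NINJ1 and TNFRSF12A were called before the GC and length correction and not after it (0.10 and 0.07, adjusted p = 0.16 and 0.31), and their calls ended without siKIF15 1 or NC 2. TMEM173 was nearest to CHSY3 (0.06), TMC3 (0.095) and ZNF813 (0.097), and none of these 3 was called. For CGAS the same rule gave LOC105379045 (0.617), NPIPA8 (0.697) and TMEM108 (0.714). With CGAS at the floor in 4 of 6 libraries and candidates held to a mean of 100, these distances say nothing of likeness.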

How the data were processed

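For each of 6 libraries the authors deposited a signal value per gene symbol. Per the labels' protocols, libraries were made from total RNA by a standard Illumina procedure. Bowtie 0.12.2 and mouse builds (mm8, mm9) are listed for these human cells, per the submitters' processing notes. How reads were counted, with which annotation and human build, and how values were normalized is not given in the sources used here. Deposited values look like gene counts adjusted to a common library size, which is an inference. Reads were not recovered.

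Log2(value + 1) was fitted with limma 3.58.1 (R 4.3.3, intensity-dependent variance trend, no covariate, all 6 libraries, threshold 0.05), after the code was tested on simulated data. GC content and length came from GENCODE 29 and covered 16876 of 17356 rows. Within each library, log2 deviations from the mean of all libraries were regressed on splines of both. Alternatives covered pseudocounts of 0.5 and 10, filters, scaling, the variance trend, the GC and length correction, a replicate block and each library left out.

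The members, the gene lists and the tests were chosen with earlier results of these data known. The text names every measured member, KIF15, the called genes of each list, and the 3 genes nearest in profile to each member. Other genes named (TBK1, IRF3, IKBKE, ENPP1, AIM2, the Ku, ribonuclease H2 and ribonucleotide reductase subunits, TREX2, ADAR, DNASE2, APOBEC3B, AURKA, the overlapping ATRIP and DDX43, and markers) were chosen for their role or position, some after their values were seen.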

Additional observations from a re-analysis of the deposited data

How the results depend on the processing

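IFI16 kept its direction in all 16 alternatives, with log2 changes from 0.87 to 1.34, and its call in 15. Without the variance trend IFI16 (1.11, adjusted p = 0.081) and TREX1 (0.35, adjusted p = 0.15) were not called, 1070 genes were called in all (760 higher, 310 lower), and the 5 lists held 5 higher and 1 lower. After the GC and length correction TREX1 stood at 0.11 (limma adjusted p = 0.093) and the median change of all genes at -0.08. In that fit 5151 genes were called (3523 of them lower) and the lists held 29 lower. With that correction and a replicate block TREX1 stood at 0.11 (adjusted p = 0.069), with 5245 calls, 3575 of them lower, and 31 lower in the lists. The replicate block alone left IFI16 at 1.11 (adjusted p = 3.9e-05) and TREX1 at 0.35 (adjusted p = 0.0024), with 3184 calls, and TK2 lost its call (adjusted p = 0.082). Same-numbered libraries did not deviate together (r = 0.03, -0.06 and 0.02 across 13632 genes), so no pairing by number was seen. With 3 libraries per group this cannot exclude that same-numbered libraries were handled together. Leaving out 1 library gave 0.27 to 0.44 for TREX1, -0.3 to 0.02 for TMEM173 and -0.11 to 0.76 for CGAS. It gave 1184 to 5077 calls (767 to 2537 higher, 417 to 2540 lower), and 7 to 23 higher and 1 to 15 lower in the lists. ATRIP ran from -0.09 to 0.05, changing sign without siKIF15 3 (0.05) and NC 2 (0.01), and TMEM108 from -0.11 to 0.29, changing sign without siKIF15 1 (-0.06) and NC 1 (-0.11). The cause of these changes was not tested. CGAS could not be tested with a minimum mean of 10 or without siKIF15 1, where it fell under the filter. Among 33 other named genes, 440 of 526 values kept direction and side of the threshold and 79 lost the call. These values include genes that were not called at first and so had no call to lose. Of the 26 named genes called, members included, 26 kept the call without siKIF15 3 and 11 without siKIF15 1. Without the variance trend 7 kept it: ULK1, NPC1, CMPK2, APOBEC3A, APOBEC3H, GSDMB and ZBTB32. Depth is unknown, so counting error of low genes such as TMEM173 and CGAS cannot be given.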
